A study of Mus musculus with 8 samples.

Results

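The 10 genes followed here encode proteins that are used to select or describe mesenchymal progenitors and pericytes, and were taken by symbol from the 51822 gene symbols with an RPKM (a read count scaled for transcript length and sequencing depth) in each of 8 RNA sequencing libraries. They are Ly6a (Sca-1), Thy1, Cd34, the receptors Pdgfra, Pdgfrb, Eng (endoglin) and Lepr (leptin receptor), and the perivascular markers Cspg4 (the NG2 proteoglycan), Mcam and Nes (nestin). All 10 symbols were found, and all 10 were among the 12514 tested genes, those that reached an RPKM of 1 in 2 or more libraries. Mouse osteoblast progenitors were cultured in osteogenic medium with ascorbic acid, dexamethasone and β-glycerophosphate, with either DMSO as the vehicle (control) or LAMZ (locamidazole, an aminoindazole compound) at 1 μM. RNA was collected on day 7 or day 14 of culture, so that the 4 groups were day 7 control, day 7 LAMZ, day 14 control and day 14 LAMZ, with 2 libraries in each. The comparisons asked how the level of each marker differed with LAMZ on each day, how it differed between the days within control and within LAMZ cultures, and whether the LAMZ change differed between the days.

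Mesenchymal progenitors are stromal cells that can give rise to osteoblasts, adipocytes and chondrocytes. No single surface protein defines them, and they are sorted by combinations such as Sca-1 with PDGFRα or by the leptin receptor, and many lie against vessels, where pericytes carry PDGFRβ, NG2 and CD146, the product of Mcam. Several of these proteins are also made by other cells: Sca-1 and CD34 by blood progenitors, endoglin and CD146 by endothelium, and nestin by neural progenitors.

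By an estimate from the RPKM values, the libraries held 3463538 to 5832101 mapped reads, and the members had from 15 reads (Cd34 in its lowest library) to 3408 reads (Cspg4 in its highest). The lowest counts of Lepr, Mcam and Nes were 25, 29 and 32 reads, the fewest after those of Cd34 with LAMZ, so sampling noise weighs most on these genes. The spread between replicates did not follow the read number. Thy1 had 260.4 and 165.3 RPKM in the day 7 control libraries, and Cd34 had 0.689 and 0.639 in the day 7 LAMZ libraries. The sample labels name MC3T3-E1 cells, a mouse osteoblastic cell line, whereas the methods of the study name cultured calvarial cells. Osteoblast genes were high in every library, with Col1a1, a chain of type I collagen, between 4354 and 9964 RPKM. Macrophage genes were present as well in control libraries: the summed RPKM of 14 macrophage and leukocyte markers was 466.5 and 606.6 in the day 7 control libraries and 1135 and 1178 in the day 14 control libraries, against 7.65 to 9.43 and 7.36 to 7.99 in the LAMZ libraries, where 5 of the 14 had no reads on either day. C1qa, a complement gene of macrophages, was among these 5. Of the 14, 12 fell with LAMZ at day 7 and 13 at day 14. Thus the control cultures also held RNA of macrophage genes that the LAMZ cultures nearly lacked, and its part in the changes of the members was not tested. Of 13 endothelial markers, 3 passed the filter on low values, with Erg the highest at no more than 3.59 RPKM. Among the defining genes, Pecam1 and Kdr had no more than 0.222 and 0.147 RPKM and Cldn5 was listed at 0. Cdh5 had 0.886 and 1.05 RPKM in the day 14 control and 0.326 and 0.244 in the day 14 LAMZ libraries. At day 14 the control and LAMZ means were 0.737 and 0.292 RPKM for Flt1, and 0.646 and 1.08 for Esam. Cdh5, Flt1 and Esam did not pass the filter, so these differences were not tested. In RNA from a whole culture, fewer cells that express a gene and less RNA of it per cell cannot be told apart. The labels do not say whether the 2 libraries of a group came from separate cultures, so the p-values measure the spread between these libraries, which may be technical.

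With LAMZ, the stem cell antigens Ly6a, Cd34 and Thy1 and the receptor Pdgfrb were lower than in control cells on both days, and Pdgfra fell at day 14. Cspg4 was higher on both days, and Mcam and Nes rose at day 14. At day 7, 5 of the 10 members passed an adjusted p of 0.05 in limma, 1 higher (Cspg4) and 4 lower (Ly6a, Cd34, Thy1 and Pdgfrb), whereas 12.8% of all tested genes did, 4.35% higher and 8.49% lower. At day 14, 8 of the 10 passed, 3 higher (Cspg4, Mcam and Nes) and 5 lower (Ly6a, Cd34, Thy1, Pdgfra and Pdgfrb), compared with 23.0% of all tested genes, 6.96% higher and 16.0% lower. Eng and Lepr passed on neither day. Of all called genes, 33.9% were higher with LAMZ at day 7 and 30.3% at day 14, shares that became 8.69% and 8.16% when the libraries were rescaled to the same sum, 53.5% and 56.3% when they were centred on the median and 45.7% and 47.9% with quantile normalization, but no called member turned direction under these scalings. The median log2 fold change of the 10 was −0.39 at day 7 and −0.34 at day 14, and that of all tested genes was −0.08 and −0.15.

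**Figure D1:**
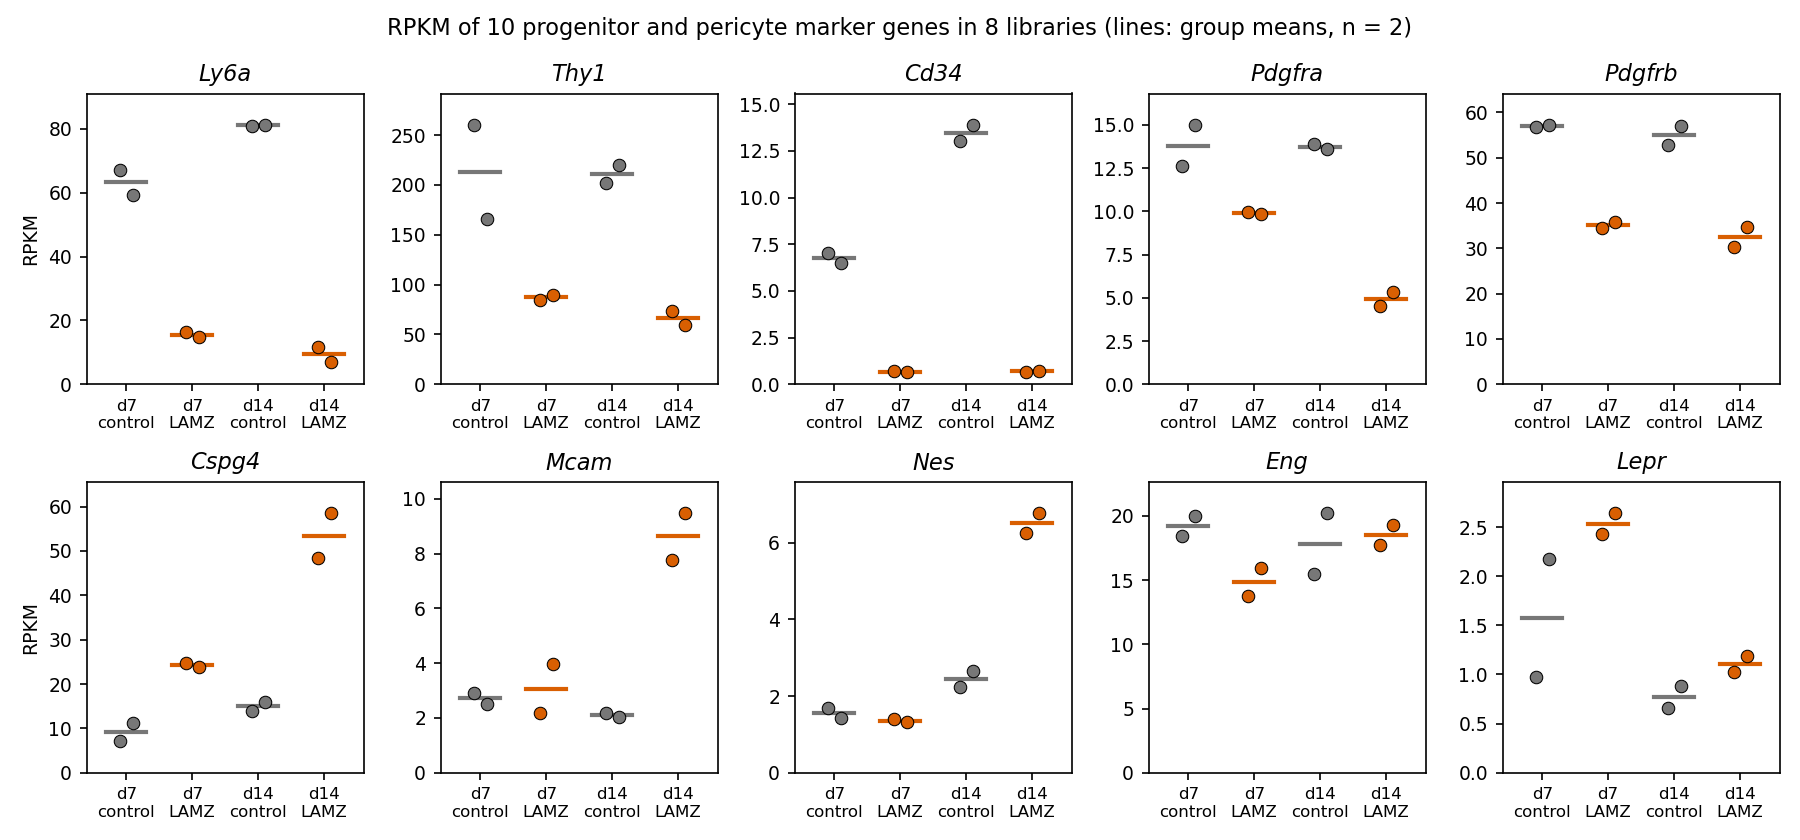
RPKM (vertical axes, each from 0) of the 10 markers in each of the 8 libraries, with a point for a library and a line for the mean of the 2 libraries of a group. Ly6a, Thy1, Cd34 and Pdgfrb lay lower in every LAMZ library than in every control library, Cspg4 lay higher, and the day 14 LAMZ libraries stood above the other 6 for Mcam and Nes.

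Ly6a (ENSMUSG00000075602, GRCm38 chromosome 15, 74994877 to 74998031) encodes Sca-1, a small lipid-anchored surface protein that is used to sort stromal and blood progenitors. Its RPKM was 67.1 and 59.4 in the day 7 control libraries and 16.3 and 14.8 in the day 7 LAMZ libraries. At day 14 it was 80.8 and 81.3 in the control libraries and 11.8 and 6.97 in the LAMZ libraries. Every LAMZ library lay far below every control library, with no overlap on either day. The mean was 4.06-fold lower with LAMZ at day 7 and 8.63-fold lower at day 14. On the log2(RPKM + 1) scale, the change was −1.95 (standard error, SE, 0.21, limma adjusted p = 0.00107) at day 7 and −3.02 (SE 0.21, limma adjusted p = 7.27e-05) at day 14. In the ordered list of tested genes, these were the 84th lowest and the 53rd lowest changes of 12514. Ly6a belongs to a family of related neighbours on chromosome 15, and reads could have been divided among those most alike in sequence, which was not tested. Of 9 family members listed, only Ly6c1 and Ly6e passed the filter on low values, and Ly6c1 fell by 1.96 on the log2 scale at day 7 and by 2.21 at day 14 (limma adjusted p = 0.00135 and 0.000394), while Ly6e had a change of −0.35 at day 7 (limma adjusted p = 0.217) and fell by 0.55 at day 14 (limma adjusted p = 0.0486).

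Cd34 (ENSMUSG00000016494, chromosome 1, 194938819 to 194961279) encodes a sialomucin of blood, endothelial and some stromal progenitors. In control libraries its RPKM was 7.01 and 6.50 at day 7 and 13.1 and 13.9 at day 14. In LAMZ libraries it was 0.689 and 0.639 at day 7 and 0.672 and 0.722 at day 14. The control level was higher at the later day, and the LAMZ level stayed at about the same low value, with ranges of the LAMZ groups that overlapped between the days. As a ratio of means, Cd34 was 10.2-fold lower with LAMZ at day 7 and 19.3-fold lower at day 14, the largest ratios among the 10 members. The log2 fold changes of RPKM + 1, which are smaller because the added 1 exceeds the LAMZ level, were −2.22 (SE 0.12, limma adjusted p = 5.83e-05) and −3.09 (SE 0.12, limma adjusted p = 4.74e-06). A pseudocount of 0.1 in place of 1 gave −3.17 at day 7. The gene shares 148 exon bases with the antisense gene Gm16897, which had at most 0.36 RPKM.

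Thy1 (ENSMUSG00000032011, chromosome 9, 44043384 to 44048579) encodes CD90, a lipid-anchored surface protein of stromal cells, neurons and thymocytes. It was the member with the highest RPKM, 260.4 and 165.3 in the day 7 control libraries against 84.7 and 89.5 in the day 7 LAMZ libraries. At day 14 the values were 201.6 and 219.8 in control and 73.3 and 59.4 in LAMZ libraries. The day 7 control libraries were far apart, yet both stood above all LAMZ libraries. Thy1 was 2.44-fold lower with LAMZ at day 7 and 3.18-fold lower at day 14. The log2 fold changes were −1.24 (SE 0.21, limma adjusted p = 0.00844) and −1.66 (SE 0.21, limma adjusted p = 0.00133). At day 7 the call was lost when either day 7 LAMZ library was left out (limma adjusted p = 0.0712 without replicate 1 and 0.0515 without replicate 2). Thy1 also marks T cells, whose genes were low: of 7 markers only Trac passed the filter, at no more than 4.31 RPKM, and it was not called on either day.

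The receptors for platelet-derived growth factor followed. Pdgfra (ENSMUSG00000029231, chromosome 5, 75152292 to 75198215) encodes the receptor tyrosine kinase PDGFRα of stromal progenitors. Its RPKM was 12.6 and 15.0 in the day 7 control libraries and 9.94 and 9.86 in the day 7 LAMZ libraries. At day 14 it was 13.9 and 13.6 in control and 4.50 and 5.31 in LAMZ libraries. The groups did not overlap on either day, and the gap was wider at day 14. The log2 fold change was −0.44 (SE 0.13, limma adjusted p = 0.0637) at day 7, short of the threshold, and −1.32 (SE 0.13, limma adjusted p = 0.000374) at day 14, when the mean was 2.80-fold lower. Rescaling every library to the same sum, which moved the median log2 fold change of all tested genes to −0.31 at day 7 and −0.43 at day 14, brought Pdgfra past the threshold at day 7 (−0.71, limma adjusted p = 0.00987), a difference from that median of about the same size as without rescaling. The gene shares 456 exon bases with the antisense gene Gm42802, which reached 2.91 RPKM, and the strand of the counting is not stated.

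Pdgfrb (ENSMUSG00000024620, chromosome 18) encodes the related receptor PDGFRβ, which pericytes use to respond to PDGF-B from endothelium. Its RPKM was 56.8 and 57.3 in the day 7 control libraries and 34.5 and 35.7 in the day 7 LAMZ libraries. At day 14 it was 52.8 and 57.0 in control and 30.3 and 34.7 in LAMZ libraries. All 4 control libraries lay above all 4 LAMZ libraries, with close values within each treatment. The receptor was 1.62-fold lower with LAMZ at day 7 (log2 fold change −0.68, SE 0.11, limma adjusted p = 0.00798) and 1.69-fold lower at day 14 (−0.74, SE 0.11, limma adjusted p = 0.00315). Leaving out either day 7 LAMZ library ended the day 7 call, with limma adjusted p of 0.0718 without replicate 1 and 0.0513 without replicate 2. The ratio of Pdgfrb to Pdgfra, both per length, was 3.47 to 4.51 in the 6 libraries outside the day 14 LAMZ group and 6.73 and 6.52 in that group. Thus the receptors kept a similar proportion at day 7 with and without LAMZ, and PDGFRα mRNA was the scarcer relative to PDGFRβ mRNA after 14 days with LAMZ.

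Of 10 PDGF ligand and signaling genes, 2 were called higher and 3 lower at day 7, and 3 higher and 5 lower at day 14. Their median log2 fold changes were −0.22 and −0.53. Among all tested genes, 4.35% were called higher and 8.49% lower at day 7, and 6.96% higher and 16.0% lower at day 14. Pdgfa, the ligand with the highest level, had an RPKM of 9.35 and 8.61 in day 7 control and 26.0 and 28.2 in day 7 LAMZ libraries, and of 11.9 and 13.0 in day 14 control and 38.9 and 40.4 in day 14 LAMZ libraries. It rose by 1.49 and 1.59 on the log2 scale (limma adjusted p = 0.000245 and 8e-05), while its receptor gene Pdgfra was called lower at day 14 and not at day 7. The other ligands were looked at after their values were seen. Pdgfc rose on both days (log2 fold changes 1.17 and 0.62, limma adjusted p = 0.00164 and 0.014), Pdgfd fell on both days (−1.09 and −1.56, limma adjusted p = 0.00225 and 0.000216), and Pdgfb rose at day 14 (1.47, limma adjusted p = 0.000911) from 1.15 and 0.834 RPKM to 4.23 and 4.77. Among the receptor-like and signaling genes of highest level, Pdgfrl fell by 0.63 at day 14 (limma adjusted p = 0.0113), the phosphatase gene Ptpn11 fell by 0.62 at day 7 (limma adjusted p = 0.0252), and the phospholipase gene Plcg1 was not called (−0.21 and −0.16, limma adjusted p = 0.373 and 0.447).

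**Figure D2:**
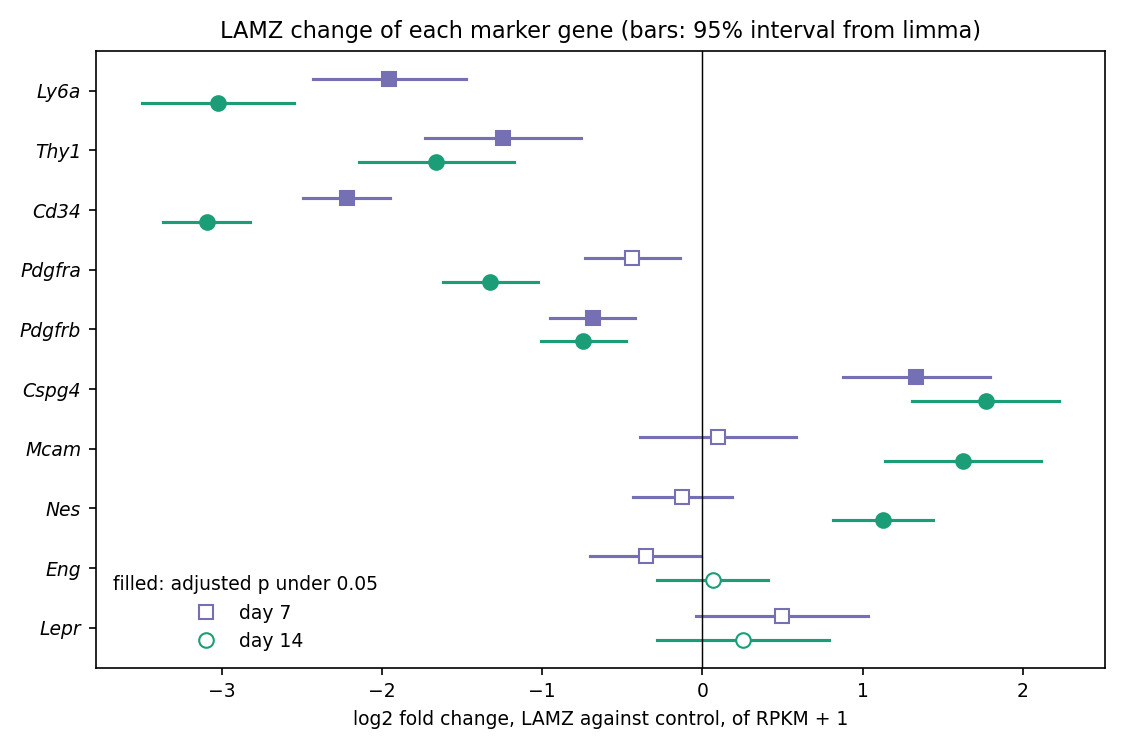
Log2 fold change of RPKM + 1 with LAMZ against control (horizontal axis) for each marker, squares for day 7 and circles for day 14, with bars for the 95% interval from limma and filled symbols for an adjusted p under 0.05. The estimates ran from −2.22 (Cd34) to 1.33 (Cspg4) at day 7 and from −3.09 (Cd34) to 1.77 (Cspg4) at day 14.

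Cspg4 (ENSMUSG00000032911, chromosome 9, 56865033 to 56899870) encodes NG2, a large membrane proteoglycan of pericytes and glial progenitors. Its RPKM was 7.18 and 11.3 in the day 7 control libraries and 24.8 and 23.9 in the day 7 LAMZ libraries. At day 14 it was 13.9 and 16.0 in control and 48.3 and 58.5 in LAMZ libraries. Each LAMZ library stood above every control library of either day. Cspg4 was 2.63-fold higher with LAMZ at day 7 and 3.57-fold higher at day 14. These were log2 fold changes of 1.33 (SE 0.20, limma adjusted p = 0.00484) and 1.77 (SE 0.20, limma adjusted p = 0.000763).

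Mcam (ENSMUSG00000032135, chromosome 9, 44134469 to 44142727) encodes CD146, an adhesion molecule of the immunoglobulin family. At day 7 its RPKM was 2.93 and 2.50 in control and 2.17 and 3.95 in LAMZ libraries. At day 14 it was 2.17 and 2.05 in control and 7.78 and 9.48 in LAMZ libraries. The groups overlapped at day 7 and were far apart at day 14. The log2 fold change was 0.096 (95% interval −0.39 to 0.58, limma adjusted p = 0.815) at day 7 and 1.63 (SE 0.21, limma adjusted p = 0.00148) at day 14, when the mean was 4.09-fold higher.

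Nes (ENSMUSG00000004891, chromosome 3, 87971078 to 87980451) encodes nestin, an intermediate filament protein of neural progenitors and of some perivascular cells. Its RPKM was 1.69 and 1.44 in day 7 control and 1.39 and 1.32 in day 7 LAMZ libraries. By day 14 it was 2.23 and 2.65 in control and 6.25 and 6.77 in LAMZ libraries. At day 7 the values of both treatments were low and close together, and at day 14 the LAMZ libraries were well above the control libraries. Nes had a log2 fold change of −0.12 (95% interval −0.43 to 0.19, limma adjusted p = 0.598) at day 7 and rose by 1.13 (SE 0.13, limma adjusted p = 0.00101) at day 14, a mean 2.66-fold higher. Of 9 neural and glial markers, only Mbp, S100b and Tubb3 passed the filter on low values, and Tubb3, a neuronal tubulin, was the one called with LAMZ. It had 1.40 and 1.07 RPKM in the day 14 control and 7.25 and 7.89 in the day 14 LAMZ libraries (log2 fold change 1.95, limma adjusted p = 0.000174). At day 7 Tubb3 had 5.25 and 5.41 RPKM in control and 5.27 and 7.40 in LAMZ libraries. Between the days it fell in control cells (−1.51, limma adjusted p = 0.00611) and was not called in LAMZ cells (0.24, limma adjusted p = 0.352). Nes, by contrast, rose in LAMZ cells. The other defining genes were low, with Sox2 at no more than 0.129 RPKM and Sox10 at no more than 0.489, and the part of neural cells in the rise of Nes was not tested.

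Eng (ENSMUSG00000026814, chromosome 2, 32646595 to 32682669) encodes endoglin, a co-receptor for bone morphogenetic proteins and TGF-β. Its RPKM was 18.5 and 20.0 in day 7 control, 13.8 and 15.9 in day 7 LAMZ, 15.5 and 20.2 in day 14 control and 17.7 and 19.3 in day 14 LAMZ libraries. The 4 groups lay close together, and their ranges overlapped at day 14. The log2 fold change was −0.35 (95% interval −0.70 to −0.0061, limma adjusted p = 0.172) at day 7 and 0.063 (95% interval −0.28 to 0.41, limma adjusted p = 0.795) at day 14. In the same sum rescaling, Eng passed the threshold at day 7 (−0.64, limma adjusted p = 0.0235). The gene shares 61 exon bases with Fpgs on the other strand. Around endoglin, 15 of 17 receptor, SMAD and target genes were tested, of which 1 was called higher and 4 lower at day 7, and 1 higher and 7 lower at day 14. The shares over all tested genes were 4.35% higher and 8.49% lower at day 7, and 6.96% higher and 16.0% lower at day 14. Id1 and Id3, targets of bone morphogenetic protein signaling, fell on both days (Id1 by 1.64 and 1.27, limma adjusted p = 0.00469 and 0.00768; Id3 by 1.05 and 0.87, limma adjusted p = 0.00886 and 0.0113). The receptor Tgfbr2 fell by 0.85 at day 14 (limma adjusted p = 0.013), and the shared signal transducer Smad4 had changes of 0.013 and 0.093 (limma adjusted p = 0.958 and 0.582).

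Lepr (ENSMUSG00000057722, chromosome 4, 101717404 to 101815352) encodes the leptin receptor, which marks perivascular stromal cells of adult bone marrow. It had the lowest mean RPKM of the 10 members, with 0.978 and 2.17 in day 7 control and 2.43 and 2.64 in day 7 LAMZ libraries. At day 14 the values were 0.660 and 0.879 in control and 1.02 and 1.19 in LAMZ libraries. LAMZ libraries were the higher on both days, but the day 7 control libraries differed from each other by more than the group means did. The log2 fold change was 0.50 (95% interval −0.040 to 1.03, limma adjusted p = 0.21) at day 7 and 0.25 (95% interval −0.28 to 0.79, limma adjusted p = 0.472) at day 14. Without day 7 control replicate 2, the day 7 change was 0.84 (limma adjusted p = 0.0462). Of 7 tested partners in leptin signaling, 1 was called higher at day 7 (Adam10, a protease, 0.44, limma adjusted p = 0.0438). At day 14, 1 was called higher (Leprotl1, 0.52, limma adjusted p = 0.0343) and 1 lower (Leprot, −0.43, limma adjusted p = 0.0323). These counts were near the shares of all tested genes called in either direction, 12.8% at day 7 and 23.0% at day 14. The transducer Stat3 had changes of −0.30 and −0.18 (limma adjusted p = 0.12 and 0.289), and the ligand gene Lep had at most 0.198 RPKM.

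The order of the members' levels, which can be compared because RPKM is per length, differed between the groups. In day 7 control cells, the mean RPKM was highest for Thy1 (212.9), followed by Ly6a (63.3), Pdgfrb (57.0), Eng (19.2), Pdgfra (13.8), Cspg4 (9.25), Cd34 (6.76), Mcam (2.71), Lepr (1.57) and Nes (1.57). In day 14 LAMZ cells, Thy1 (66.3) was followed by Cspg4 (53.4), Pdgfrb (32.5), Eng (18.5), Ly6a (9.39), Mcam (8.63), Nes (6.51), Pdgfra (4.91), Lepr (1.11) and Cd34 (0.697). Cspg4 thus moved from the sixth to the second place and Cd34 to the last, while the ranges of the neighbours Lepr and Nes overlapped in the first group and those of Ly6a and Mcam in the second. The ratio of Thy1 to Cspg4 was 13.7 to 36.3 in the control libraries, 3.42 and 3.75 in the day 7 LAMZ libraries, and 1.52 and 1.01 in the day 14 LAMZ libraries.

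**Figure D3:**
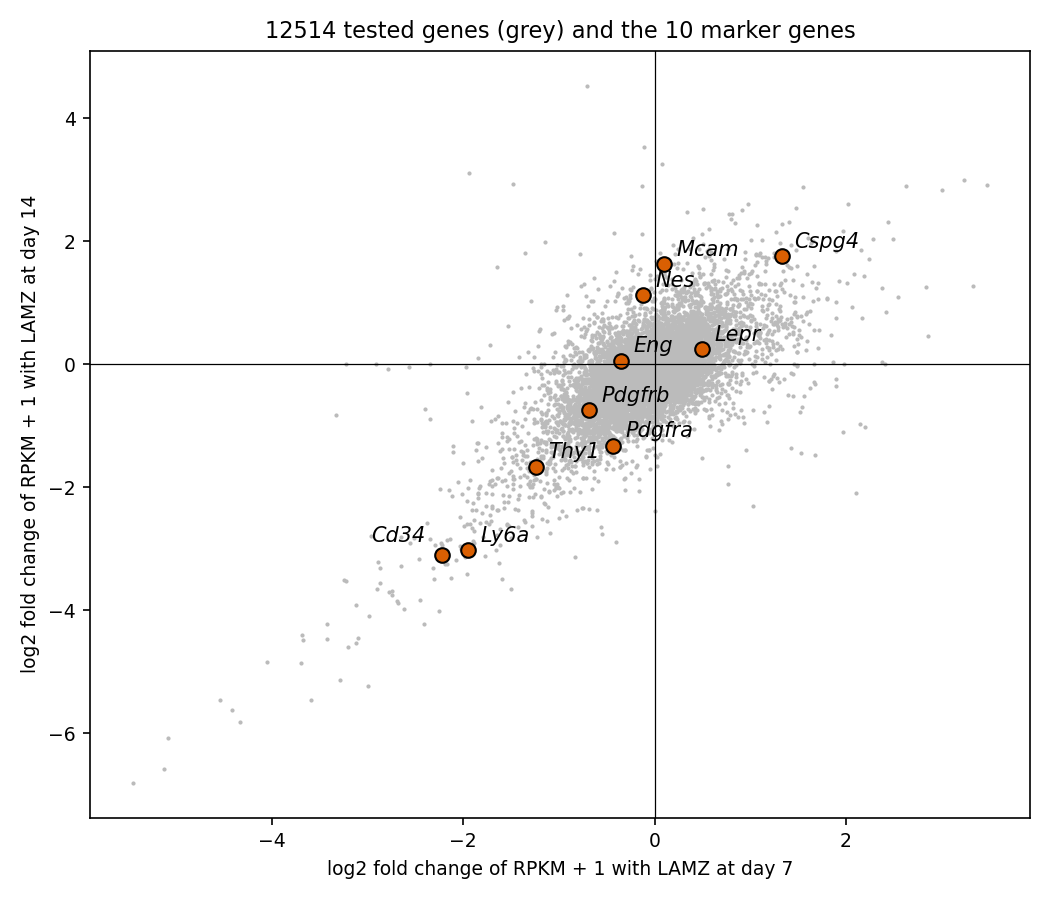
Log2 fold change of RPKM + 1 with LAMZ at day 7 (horizontal axis) against that at day 14 (vertical axis) for the 12514 tested genes (grey) and the 10 markers (orange). Cd34 and Ly6a lay toward the lower left end, Cspg4 toward the upper right, Mcam and Nes high on the vertical axis but near 0 on the horizontal one, and Eng and Lepr within the main cloud.

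Promoter sequences from RefSeq (GRCm38.p6) were found for 7 of the 10 members, 5 of them called with LAMZ (Cd34, Pdgfra, Nes, Mcam and Cspg4), and 4 of these are shown because the genes moved with LAMZ in opposite directions. Each window held the 250 bases before the RefSeq start, on the plus strand, and is printed 5′ to 3′ up to the base before the GENCODE gene start given above, which lies further upstream for all but Pdgfra. The window of Mcam lies mostly inside the gene as GENCODE has it and is not printed. Cd34 (chr1:194938571-194938818) and Pdgfra (chr5:75152001-75152250) were lower with LAMZ, and Nes (chr3:87970843-87971077) and Cspg4 (chr9:56864854-56865032) were higher. Capitals mark matches, on either strand, to the GC box GGGCGG or the E-box CANNTG.
Cd34: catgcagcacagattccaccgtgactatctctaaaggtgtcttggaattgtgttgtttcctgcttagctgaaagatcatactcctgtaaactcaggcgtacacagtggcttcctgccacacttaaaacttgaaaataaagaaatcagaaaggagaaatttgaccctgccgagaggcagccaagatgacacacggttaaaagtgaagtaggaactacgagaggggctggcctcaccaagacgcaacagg
Pdgfra: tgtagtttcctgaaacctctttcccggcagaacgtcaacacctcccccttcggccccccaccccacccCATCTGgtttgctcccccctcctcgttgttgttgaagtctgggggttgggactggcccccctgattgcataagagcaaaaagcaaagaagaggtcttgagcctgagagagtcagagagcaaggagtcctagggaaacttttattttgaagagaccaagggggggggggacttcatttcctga
Nes: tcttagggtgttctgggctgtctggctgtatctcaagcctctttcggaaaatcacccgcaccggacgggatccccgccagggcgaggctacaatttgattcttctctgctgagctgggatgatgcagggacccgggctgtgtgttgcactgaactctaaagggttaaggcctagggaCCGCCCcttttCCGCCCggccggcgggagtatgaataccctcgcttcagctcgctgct
Cspg4: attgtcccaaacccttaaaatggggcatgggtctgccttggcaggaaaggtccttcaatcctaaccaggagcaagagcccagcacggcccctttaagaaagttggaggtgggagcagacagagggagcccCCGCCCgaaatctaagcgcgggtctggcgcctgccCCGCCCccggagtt

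Of the full windows, the promoters of Mcam, Nes and Cspg4 held 5, 2 and 2 GC boxes and those of Cd34 and Pdgfra held 0, whereas 32.9% of 27025 promoters of the same length held at least 1. All 5 GC boxes of Mcam, 112 to 38 bases before the RefSeq start, lay inside the gene as GENCODE has it. An E-box was found once in Pdgfra and once in Mcam, and in 66.0% of all promoters. TATAAA (13.0% of all promoters), the RUNX core TGTGGT (14.2%), the CArG box (1.40%) and the MEF2 site (3.01%) had no match in any of these 5 windows. TATAAA can lie inside a MEF2 site, and no matches overlapped here. The windows held 6 (Cd34), 4 (Pdgfra), 15 (Nes), 25 (Mcam) and 12 (Cspg4) CpG dinucleotides, and the median of all promoters was 6. GC content was 46.4%, 54.4%, 58.8%, 73.6% and 60.4% in the same order, with a median of 52.0% over all promoters. Thus, of these 5 genes, the 3 that rose had windows richer in GC and CpG than the 2 that fell. High GC was not particular to the genes that rose. Eng, which was not called, had 62.4% GC, above Nes and Cspg4, and 4 CpG. Lepr, also not called, had 2 windows with 58.4% and 54.8% GC and 10 CpG in each. Eng held 0 GC boxes, and the 2 windows of Lepr held 0 and 1. This is a description of few genes and of these letters only.

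Time in culture was compared within each treatment, and these comparisons share libraries with those above. In control cells, Cd34 was the only member called between the days, 2.00-fold higher at day 14 (log2 fold change 0.90, SE 0.12, limma adjusted p = 0.00967), compared with 4.86% of all tested genes, 2.46% higher and 2.40% lower. The call was lost without day 14 control replicate 1 (limma adjusted p = 0.0668) or replicate 2 (0.0601). Over the same days the summed macrophage markers of the control libraries were higher at day 14, as given above, with 11 of the 14 called higher, and their part in the rise of Cd34 was not tested. Cspg4 and Nes had positive changes of 0.66 and 0.42 that were not called (limma adjusted p = 0.10 and 0.117).

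In LAMZ cells, 4 members were called between the days, against 14.4% of all tested genes (5.10% higher and 9.26% lower). Nes rose by 1.67 (SE 0.13, limma adjusted p = 0.000602), a 4.81-fold higher mean. Mcam rose by 1.28 (SE 0.21, limma adjusted p = 0.00787) and Cspg4 by 1.10 (SE 0.20, limma adjusted p = 0.0109), means that were 2.82-fold and 2.20-fold higher. Pdgfra fell by 0.89 (SE 0.13, limma adjusted p = 0.00476), to a mean 2.02-fold lower. Ly6a and Lepr had changes of −0.71 and −0.75 that were short of the threshold (limma adjusted p = 0.0562 and 0.0691), and Cd34, Thy1, Pdgfrb and Eng had changes between −0.40 and 0.30 that were not called. The calls of Mcam and Cspg4 depended on single libraries: without day 14 LAMZ replicate 2 the adjusted p was 0.0657 for Mcam and 0.0809 for Cspg4, and without day 7 LAMZ replicate 1 or 2 it was 0.0626 and 0.0813 for Cspg4, from limma.

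The difference of the LAMZ change between the days was tested as an interaction. Nes was the only member called, with a LAMZ change 1.25 higher at day 14 than at day 7 on the log2 scale (SE 0.19, limma adjusted p = 0.0374), and 0.623% of all tested genes were called, 0.312% higher and 0.312% lower. That call was lost when any one library was left out (adjusted p from 0.0658 to 0.163 from limma, with differences of 1.16 to 1.34). Mcam had a difference of 1.53 (95% interval 0.84 to 2.22, limma adjusted p = 0.0713), Pdgfra of −0.89 (95% interval −1.31 to −0.47, limma adjusted p = 0.0826), Cd34 of −0.87 (95% interval −1.26 to −0.49, limma adjusted p = 0.0695) and Ly6a of −1.07 (95% interval −1.74 to −0.39, limma adjusted p = 0.147). The remaining 5 differences were smaller, between −0.42 (Thy1) and 0.43 (Cspg4), so that a difference between the days was called for Nes alone.

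Further genes of the cell types and sites that the members are used for were followed as lists. For comparison, 4.35% of all tested genes were called higher with LAMZ and 8.49% lower at day 7, and 6.96% higher and 16.0% lower at day 14. Of 14 pericyte and mural genes, 10 were tested, and 3 were called higher and 0 lower with LAMZ at day 7, and 5 higher and 2 lower at day 14. Their median log2 fold changes were 0.48 and 0.63. Acta2, smooth muscle actin, had the highest level, with 675 to 945 RPKM in control and 1061 to 1588 RPKM in LAMZ libraries, a change of 0.48 at day 7 (limma adjusted p = 0.124) and a rise of 1.04 at day 14 (limma adjusted p = 0.00538). Tagln, another contractile gene, had a change of −0.16 at day 7 (limma adjusted p = 0.527) and rose by 0.70 at day 14 (limma adjusted p = 0.0105). Ndufa4l2 and Cox4i2, mitochondrial genes that are enriched in pericytes, rose at day 7 (1.27 and 1.51, limma adjusted p = 0.0128 and 0.00194) and had changes of 0.23 and 0.56 at day 14 (limma adjusted p = 0.523 and 0.0602). The pericyte genes Rgs5, Abcc9, Higd1b and Vtn did not pass the filter, and Rgs5 had at most 0.983 RPKM in any library. The genes called lower at day 14 were Notch3, a receptor of mural cells (−0.71, limma adjusted p = 0.0151), and Anpep, a surface peptidase gene (−0.94, limma adjusted p = 0.00261), both named after their values were seen. Myh11, Des and Cnn1, also named after their values were seen, rose at day 14 (1.98, 1.49 and 0.98, limma adjusted p = 8.23e-05, 0.00214 and 0.0148). Myh11 rose at day 7 as well (1.31, limma adjusted p = 0.00116). The list thus moved in both directions at day 14, with 5 genes called higher and 2 called lower.

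All 20 skeletal stromal progenitor genes were tested, of which 2 were called higher and 6 lower at day 7, and 3 higher and 13 lower at day 14. The median was −0.35 and −0.88. By level, Postn, a matrix protein gene, had a change of 0.39 at day 7 (limma adjusted p = 0.0603) and rose by 0.81 at day 14 (limma adjusted p = 0.00194), Pdpn fell by 0.70 and 1.06 (limma adjusted p = 0.0464 and 0.00566), Cd200 rose by 1.49 at day 7 (limma adjusted p = 0.0012) with a change of 0.42 at day 14 (limma adjusted p = 0.0998), and Ctsk was not called (−0.11 and 0.14, limma adjusted p = 0.679 and 0.539). Cxcl12 and Ebf1, a chemokine gene and a transcription factor gene of Lepr-expressing marrow stroma, were chosen after their values were seen. Cxcl12 had 23.9 and 19.5 RPKM in day 7 control and 5.22 and 4.88 in day 7 LAMZ libraries, and 60.3 and 52.0 against 6.90 and 6.64 at day 14. It fell on both days (log2 fold changes −1.90 and −2.88, limma adjusted p = 0.000193 and 1.37e-05), and so did Ebf1 (−1.48 and −2.03, limma adjusted p = 0.00035 and 3.63e-05), while Lepr itself was not called. Other genes of this list, also named after their values were seen, did not fall. Foxc1 was not called (−0.09 and −0.58, limma adjusted p = 0.862 and 0.143), and Grem1 rose at day 14 (0.83, limma adjusted p = 0.0362).

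Of 12 other stromal surface markers, 10 were tested, with 1 called higher and 2 lower at day 7 and 1 higher and 3 lower at day 14. In either direction, 12.8% and 23.0% of all tested genes were called on these days. The medians of the list were −0.097 and −0.10. Cd248, endosialin, a surface protein of pericytes and stromal fibroblasts, fell by 1.73 and 2.59 (limma adjusted p = 0.000937 and 7.1e-05), from 87.7 and 61.9 to 21.0 and 22.2 RPKM at day 7 and from 80.2 and 79.3 to 13.8 and 11.2 RPKM at day 14. Cd9 rose by 0.58 at day 14 (limma adjusted p = 0.0424) after a change of 0.52 at day 7 (limma adjusted p = 0.0845). Itgb1 and Sdc1 were not called on either day, with changes between −0.089 and 0.35. Of 13 endothelial markers, 3 passed the filter, Tek, Erg and Egfl7, of which Tek fell at day 7 (−1.14, limma adjusted p = 0.0153) and at day 14 (−0.91, limma adjusted p = 0.0217) and Erg rose at day 14 (1.19, limma adjusted p = 0.00762), all at no more than 3.59 RPKM. Of 13 osteoblast markers, 9 were called higher and 0 lower on each day, with medians of 1.24 and 1.31, beside the falls of Ly6a, Cd34 and Thy1. Among those of highest level, Spp1, the osteopontin gene, rose by 3.23 and 2.99 (limma adjusted p = 0.00139 and 0.00108), Col1a1 rose by 0.55 at day 14 (limma adjusted p = 0.046), and Col1a2 and Bglap were not called on either day.

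**Figure D4:**
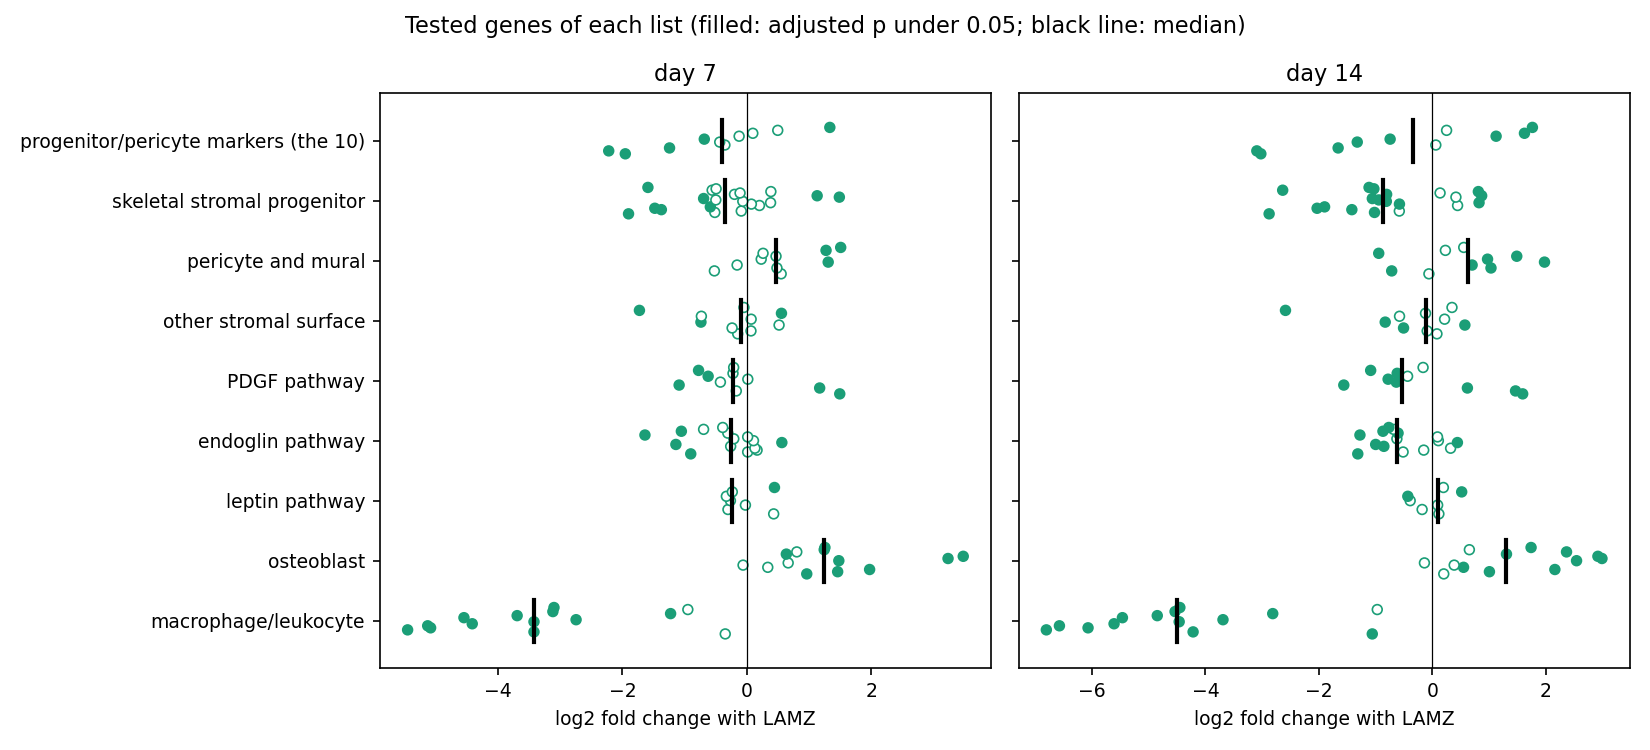
Log2 fold change of RPKM + 1 with LAMZ (horizontal axes) at day 7 and day 14 for each tested gene of the lists, with filled points for an adjusted p under 0.05 from limma and black lines for list medians. The 10 markers spread to both sides with medians of −0.39 and −0.34, osteoblast genes lay to the right with medians of 1.24 and 1.31, and macrophage and leukocyte genes lay far to the left with medians of −3.42 and −4.50.

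Across the 8 libraries, log2(RPKM + 1) of Ly6a had a Pearson's r of 0.977 with Thy1, 0.960 with Cd34 and 0.945 with Pdgfrb. Cspg4 had an r of 0.807 with Mcam and 0.755 with Nes, and of −0.924 with Thy1 and −0.904 with Pdgfra. Eng had an r between −0.337 (Lepr) and 0.421 (Pdgfrb) with the other members. The points share 4 groups and the scaling of each library, so these values describe the group pattern and are no more than that. For the 3 members of highest mean level, the most alike of the other tested genes over the 8 libraries were Map6, Rtn4 and Ehbp1 for Thy1 (r = 0.999, 0.996 and 0.995), Bcl2l11, Sfxn5 and Tcf4 for Pdgfrb (0.996, 0.994 and 0.992), and Ap2a2, Deptor and Sptbn1 for Ly6a (0.995, 0.995 and 0.994). Deptor, for example, had 2.12 and 1.82 RPKM in day 7 control, 0.793 and 0.714 in day 7 LAMZ, 2.43 and 2.59 in day 14 control and 0.560 and 0.392 in day 14 LAMZ libraries.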

How the data were processed

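Total RNA of the 8 samples was sequenced by the authors on an Ion Proton and analyzed in CLC Genomics Workbench, and the deposited RPKM values, 1 library per table, were used as they stood. The submitters' processing notes name mm10, and the program version and annotation are not given in the sources used here. Entries with a repeated or missing symbol (4 per table) were dropped. Groups came from the sample labels. The 12514 genes that reached an RPKM of 1 in 2 or more of the 8 libraries were fitted on log2(RPKM + 1) with limma 3.58.1 in R 4.3.3 (lmFit and trended eBayes). A single fit held the 4 groups and left 4 residual degrees of freedom, with Benjamini-Hochberg adjustment over all these genes and a threshold of 0.05. Intervals are at 95%. Fold changes on this scale understate those of low genes.

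RPKM times length times mapped reads gives reads, and each library's mapped reads were set so that low values of single-exon genes became whole reads, within a tolerance of 0.05, which held for 97.1% to 98.2% of 786 to 1382 values per library. For Cd34 and Thy1 the annotated lengths of 7290 and 2995 bases did not give whole reads. The shortest lengths that did, 5105 and 2150 bases, were used, and the read counts of these genes rest on them. Pearson's r between replicates was 0.961 to 0.980, taken across genes (not independent points), and their reads differed by more than sampling noise (chi-square of 3.67 to 5.90 per gene). Positions are from GENCODE on GRCm38, and promoters from RefSeq on GRCm38.p6. The members and the 14 gene lists were chosen with earlier results of these data known. All members are named, and, from each list, up to 4 genes of the highest mean RPKM, and any other list gene (such as the defining markers with low values) was chosen after its values were seen. The same-numbered replicates of control and LAMZ had correlations of deviations of −0.0166 at day 7 and 0.0158 at day 14. Alternatives were other pseudocounts, filters and scalings, no trend, single comparisons, replicate blocks and each library left out. The scripts were tested on simulated data.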

Additional observations from a re-analysis of the deposited data

Results flagged for a closer look

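The LAMZ change of Nes, the nestin gene, differed between day 7 and day 14 by 1.25 on the log2(RPKM + 1) scale (day 14 minus day 7, adjusted p = 0.0374 from limma for the interaction). At day 7 the control libraries had 1.69 and 1.44 RPKM and the LAMZ libraries 1.39 and 1.32, so that both LAMZ libraries were lower, and at day 14 the LAMZ libraries, at 6.25 and 6.77, were both higher than the control libraries, at 2.23 and 2.65. Among the 10 members, this was the difference between the days that passed the threshold, and it rested on 32 to 234 reads per library.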

How the results depend on the processing

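All 8 member calls at day 14 held their direction and threshold under the 19 alternatives, as did Ly6a and Cd34 at day 7, where Thy1, Pdgfrb and Cspg4 were lost under 4, 3 and 1 (adjusted p up to 0.0769, 0.0858 and 0.0556 from limma). The replicate numbers were not shown to pair the libraries (correlations of deviations from −0.0342 to 0.0776). With a block for replicate number in all groups, 17 genes and 0 members passed for the difference between the days (1932 genes and 6 members at an unadjusted p under 0.05), the Nes difference stayed at 1.25 (adjusted p = 0.0685), and Ly6a was called between the days in LAMZ cells (adjusted p = 0.0434). With the block and only the 4 libraries of a comparison, 321 genes and 2 members passed at day 7, and 0 genes and 0 members between the days in control cells or in LAMZ cells (unadjusted p under 0.05 for 1806 and 3619 genes and for 2 and 7 members). Without the block, those 4 libraries alone gave 624 genes at day 7, and 0 genes and 0 members between the days in control cells (2184 genes and 4 members unadjusted).

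For the difference between the days, genes past the threshold numbered 34 with a pseudocount of 0.1, 166 with 5, 30 without the trend and 0 with no filter (2931 unadjusted), and members 0, 3, 0 and 0 in that order (5 unadjusted in each), and 2 both after rescaling to the same sum and after quantile normalization. With no filter, 951 genes passed at day 7, 203 between the days in control cells and 1091 in LAMZ cells. Rescaling to the same sum gave 3592 genes at day 7, 5796 at day 14, and 1135 genes and 3 members between the days in control cells. The causes were not tested.

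Leaving out a library gave 527 to 1383 genes at day 7, 1512 to 3087 at day 14, 69 to 453 and 488 to 1890 between the days in control and LAMZ cells, and 0 to 21 for the difference (1699 unadjusted where 0 passed). The members numbered 3 to 6, 8 to 8, 0 to 2, 2 to 5 and 0 to 0 (5 to 7 unadjusted). The fewest genes came without day 7 LAMZ replicate 1 (day 7), day 14 LAMZ replicate 2 (day 14), day 14 control replicate 1 (control cells), day 7 LAMZ replicate 2 (LAMZ cells) and day 14 control replicate 2 (difference).

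Directions turned only for changes that were not called. Rescaling to the same sum gave −0.13 for Mcam at day 7, −0.28 for Eng at day 14, 0.13, 0.24 and 0.20 for Eng, Pdgfra and Pdgfrb between the days in control cells, and 0.081 for Pdgfrb in LAMZ cells. Median centring gave 0.023 for Pdgfra in control cells and 0.019 for the Pdgfrb difference, and quantile normalization 0.048 for Pdgfra in control cells. With a library left out, ranges that crossed 0 were −0.23 to 0.42 (Mcam, day 7), −0.12 to 0.25 (Eng, day 14), −0.31 to 0.35, −0.30 to 0.070 and −0.12 to 0.12 (Thy1, Eng and Pdgfra between the days in control cells), and −0.15 to 0.037 and −0.58 to 0.10 (Pdgfrb and Lepr differences). With as few as 15 and 25 reads, the levels of Cd34 with LAMZ and of Lepr are limited by depth.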

Other observations

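Interferon-stimulated genes and cell cycle genes were followed beside the members. Of 12 interferon-stimulated genes, 9 were tested, with 7 called lower and 0 higher with LAMZ at day 7 and 4 lower and 0 higher at day 14. The medians were −1.81 and −1.28, and 8.49% and 16.0% of all tested genes were called lower on these days. Isg15, a ubiquitin-like protein gene, had 10.5 and 60.7 RPKM in the day 7 control libraries and 2.48 and 1.02 in the day 7 LAMZ libraries, so the control libraries differed widely from each other, and it was not called at day 14 (−0.83, adjusted p = 0.454 from limma). Bst2 fell by 1.81 at day 7 (adjusted p = 0.0103 from limma) and was not called at day 14, at −0.69 (adjusted p = 0.16 from limma), and Ifit3 by 2.65 and 2.80 (adjusted p = 0.0176 and 0.00824 from limma). Ly6a is itself known to respond to interferon, and the part of this in its fall was not tested.

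All 12 cell cycle genes were tested. With LAMZ, 1 was called lower and 0 higher at day 7 and 3 lower and 0 higher at day 14, with medians of −0.07 and −0.40. Among all tested genes, 8.49% were called lower at day 7 and 16.0% at day 14, with medians of −0.08 and −0.15. The day 7 count and median of the list were thus near those of all genes. Between the days, 9 were called lower in control cells and 12 in LAMZ cells, compared with 2.40% and 9.26% of all tested genes. The medians of the list were −0.90 and −1.48. Pcna and Rrm2, genes of DNA replication, were not called with LAMZ on either day, and neither was Top2a, while Cdk1 fell by 0.41 at day 14 (adjusted p = 0.0332 from limma).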
